A study of Mus musculus with 2 samples.

Results

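B4galt5, Sorl1 and Vstm2l are 3 of 21911 protein-coding genes of the mouse. They were chosen by a count from these data: 14 or more distal DNase I hypersensitive sites (DHSs) lay nearer to their transcription start site (TSS) than to that of any other protein-coding gene. Together they had 44 of the 11722 distal DHSs found in both libraries: 15 for B4galt5, 14 for Sorl1 and 15 for Vstm2l. The genes were selected on this count, so it is given as a description with no test. Sorl1 and Gm21860 stood at the limit of 14, and Gm21887, Mef2c, Myt1l, Sik1 and Zfp608 lay just outside it with 13.

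DNase-seq reads out where the enzyme DNase I cuts chromatin, and a DHS is a region cut more than its surroundings. The series holds 1 group of female mice of the F1 hybrid strain B6CASTF1/J, with no treatment in the labels, whose left cerebral cortex was taken at 4 days of age. Its 2 libraries, replicate 1 and replicate 2, came from animals with separate numbers in the labels and a single strain-level donor. No condition was compared, so every value is given for each library, and p-values were not computed.

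B4galt5 encodes a galactosyltransferase of the Golgi that makes lactosylceramide, the precursor of gangliosides, which are abundant in neuronal membranes. Sorl1 encodes SORLA, a sorting receptor of the Vps10 family that steers the amyloid precursor protein between the Golgi and endosomes together with retromer. Vstm2l encodes a small protein with an immunoglobulin V-set domain that has been described as a binding partner of the peptide humanin. Distal DHSs often mark enhancers or insulator sites, and a footprint is a short stretch inside a DHS that is cut less, as where a bound protein covers the DNA.

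The 44 DHSs were of 2 kinds. The 14 DHSs nearest Sorl1 were spread over 522 kb and had signal values like those of other distal DHSs. All 15 nearest B4galt5 lay in 11.1 kb around the 3′ end of the gene, and 14 of the 15 nearest Vstm2l lay inside its upstream neighbour Ctnnbl1, a gene for a splicing-associated protein. Most of these 29 DHSs had low signal values that differed little between the libraries.

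The following stretches of the mm10 (GRCm38) plus strand show the kinds side by side. They are the strongest distal DHS of each gene that overlapped no untranslated region (UTR) and the strongest DHS upstream of Vstm2l, which was chosen after its values were seen. Each is printed up to 300 bases around its centre, and capitals mark bases that lay in a footprint of both libraries. They are reference sequence, not the sequence of the CAST allele of the hybrid.
Sorl1, 172.9 kb downstream, chr9:41951261-41951560: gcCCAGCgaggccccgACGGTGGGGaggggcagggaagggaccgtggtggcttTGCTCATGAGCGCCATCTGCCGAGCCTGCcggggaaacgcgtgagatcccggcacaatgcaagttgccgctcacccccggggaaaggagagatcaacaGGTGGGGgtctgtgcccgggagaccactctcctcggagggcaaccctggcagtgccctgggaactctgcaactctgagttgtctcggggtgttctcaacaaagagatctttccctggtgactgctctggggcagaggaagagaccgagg
B4galt5, 42.6 kb downstream, chr2:167306420-167306719: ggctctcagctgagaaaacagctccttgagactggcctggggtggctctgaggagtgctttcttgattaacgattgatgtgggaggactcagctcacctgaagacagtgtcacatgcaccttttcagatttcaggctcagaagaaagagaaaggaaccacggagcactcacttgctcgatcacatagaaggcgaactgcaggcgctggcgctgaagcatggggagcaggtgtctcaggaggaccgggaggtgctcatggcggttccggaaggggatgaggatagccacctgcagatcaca
Vstm2l, 76.4 kb upstream, chr2:157838141-157838440: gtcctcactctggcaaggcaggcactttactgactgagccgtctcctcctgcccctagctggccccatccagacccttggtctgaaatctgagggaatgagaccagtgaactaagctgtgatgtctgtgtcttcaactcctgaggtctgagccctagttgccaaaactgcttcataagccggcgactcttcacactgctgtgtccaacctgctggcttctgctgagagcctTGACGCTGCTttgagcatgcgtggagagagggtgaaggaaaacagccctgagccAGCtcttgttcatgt
Vstm2l, 29.1 kb downstream, chr2:157943591-157943890: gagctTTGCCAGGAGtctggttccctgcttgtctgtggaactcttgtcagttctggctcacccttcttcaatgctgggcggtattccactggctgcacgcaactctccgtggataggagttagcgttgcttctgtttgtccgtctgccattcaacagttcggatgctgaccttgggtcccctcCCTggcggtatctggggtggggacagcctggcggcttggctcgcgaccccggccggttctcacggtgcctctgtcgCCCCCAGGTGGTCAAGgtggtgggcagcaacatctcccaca
The Sorl1 DHS reached a signal of 2.54 in replicate 1 and 7.12 in replicate 2. Its sequence holds 4 stretches under footprints of both libraries. The B4galt5 sequence is from a DHS with its midpoint in an intron and values of 0.266 and 0.370. It holds no capital, since no footprint was common to the libraries. Intron and exon refer here to the midpoint, so other bases of a DHS can lie in an exon. In the upstream Vstm2l sequence, with values of 0.364 and 0.575, 2 short stretches were common.

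B4galt5 (ENSMUSG00000017929.13) lies on the minus strand at chr2:167298444-167349183. Its 15 distal DHSs sat 42.6 to 53.2 kb downstream of the TSS of the 50.7 kb gene: 5 had their midpoint in an exon, 7 in an intron and 3 just beyond the 3′ end. Of these, 4 overlapped the 3′ UTR. The midpoints of neighbouring DHSs were 400 to 1270 bp apart, with a median of 676 bp, so the calls formed a nearly continuous stretch. By number of DHSs with edge gaps of at most 2 kb it ranked 3 of 20885 runs in the genome. Another shared DHS lay within 2 kb, between midpoints, for 15 of 15 DHSs, against 23.6% of all distal shared DHSs. The gene was picked for the number of these same DHSs, so the rank and the share are descriptions and not separate support.

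Signal, the authors' value for each call, was low along the B4galt5 stretch. Over its 15 shared DHSs the values ran from 0.145 to 0.574 in replicate 1, with a median of 0.266. In replicate 2 they ran from 0.181 to 1.05, with a median of 0.291. Over all distal shared DHSs the medians were 0.962 and 1.80. The ratio of replicate 2 to replicate 1 had a median of 1.21 over the stretch, 1.85 over all distal shared DHSs and 2.13 over all shared DHSs, and 4 of 15 DHSs were lower in replicate 2, against 3.28% of all distal ones. A weak limit of 0.3 in replicate 1, and of 0.638 in replicate 2 after scaling by the ratio of 2.13, held 12 of 15 DHSs of the stretch in both libraries, against 1.96% of all distal shared DHSs. The 230 distal shared DHSs under the limit in both libraries, 12 of the stretch among them, had a median ratio of 1.14. Their median distance to the nearest shared DHS was 826.5 bp, against 570 bp for the 15 of the stretch. The scaling of the deposited values is not stated, so a ratio near 1 cannot be read as equal accessibility.

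**Figure D1:**
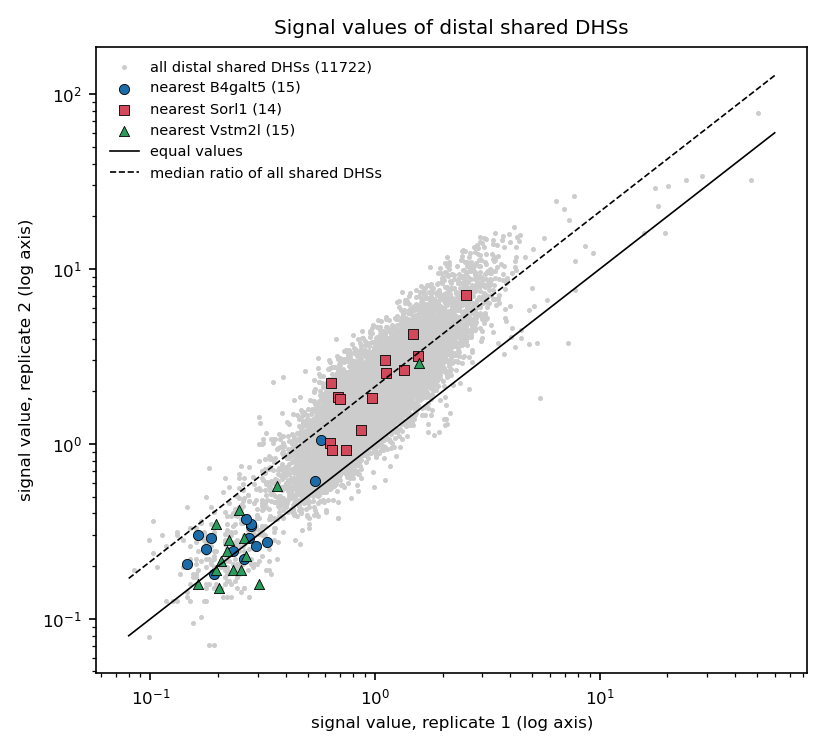
Signal values of distal shared DHSs in replicate 1 (x axis) and replicate 2 (y axis), both on log axes, in the authors' unit. Each point is 1 DHS: grey for all 11722, coloured for those nearest the 3 genes. The solid line marks equal values and the dashed line the median ratio of 2.13. The Sorl1 squares lie within the grey cloud, while most B4galt5 circles and Vstm2l triangles lie at its lower left end near the line of equal values.

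The strongest of the B4galt5 DHSs overlapped the 3′ UTR at chr2:167299241-167299660, 49.7 kb from the TSS, with 0.574 in replicate 1 and 1.05 in replicate 2. Its neighbour in the UTR, 49.0 kb from the TSS, had 0.542 and 0.614. The B4galt5 DHS printed above had the next highest geometric mean of both values. At the low end by that mean, the DHS 53.2 kb from the TSS had 0.145 and 0.205, and the intronic DHS 45.0 kb from it had 0.191 and 0.181. Apart from the pair in the UTR, the shared DHSs of the stretch stayed at or below 0.332 in replicate 1 and 0.370 in replicate 2. Calls of the stretch outside shared DHSs reached 0.411 in replicate 1 and 0.465 in replicate 2.

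Footprints were sparse in the B4galt5 stretch. Replicate 1 had 28 footprints in the 15 DHSs, or 3.49 per kb, and replicate 2 had 18, or 2.25 per kb, against 9.58 and 12.996 per kb over all distal shared DHSs. Only 3 of 15 DHSs held a footprint of each library, against 93% of all distal shared DHSs. Overlapping footprints of both libraries occurred in 1 of 15, the strongest DHS, against 84.7%. Weak DHSs at large were closer to the stretch. The 230 distal shared DHSs under the weak limit in both libraries had 3.29 footprints per kb in replicate 1 and 2.46 in replicate 2. Overlapping footprints occurred in 10.9% of those 230. The DHS with most footprints in 1 library, 49.0 kb from the TSS, had 13 in replicate 1 and 1 in replicate 2, and none of them overlapped. Tag counts per DHS are not given, and the part of depth in these footprint counts was not tested.

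The stretch did not end at the same place in both libraries on its far side. In replicate 1, 32 calls ran from 41.8 to 57.9 kb downstream of the TSS, and in replicate 2, 22 calls ran from 41.7 to 53.3 kb. Beyond a gap, replicate 1 had another 30 calls between 67.2 and 85.1 kb, towards Ptgis, the gene for prostacyclin synthase. Replicate 2 had fewer calls there, the longest run being 3 calls 76.7 to 77.8 kb from the TSS. The near end of the first stretch was thus almost the same in both libraries, while the second stretch was mainly called in replicate 1.

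The bases with a cut-rate false discovery rate under 0.05, from another deposited file of the same libraries, outlined the same blocks. The bins named here were picked where calls lay dense, so this is a further description and not independent support. In the 5 kb bins centred 42.5, 47.5 and 52.5 kb downstream of the B4galt5 TSS they made up 62.5%, 98.6% and 98.96% in replicate 1 and 59.8%, 81.2% and 59.8% in replicate 2. The 99th percentile of all 5 kb bins was 30.3% in replicate 1 and 24.4% in replicate 2. In the bins centred 67.5, 72.5, 77.5 and 82.5 kb downstream, the share was 60.5%, 89.0%, 84.5% and 97.4% in replicate 1 and 6.96%, 0%, 14.4% and 0% in replicate 2. By this measure too, the first stretch stood out in each library and the second mainly in replicate 1.

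**Figure D2:**
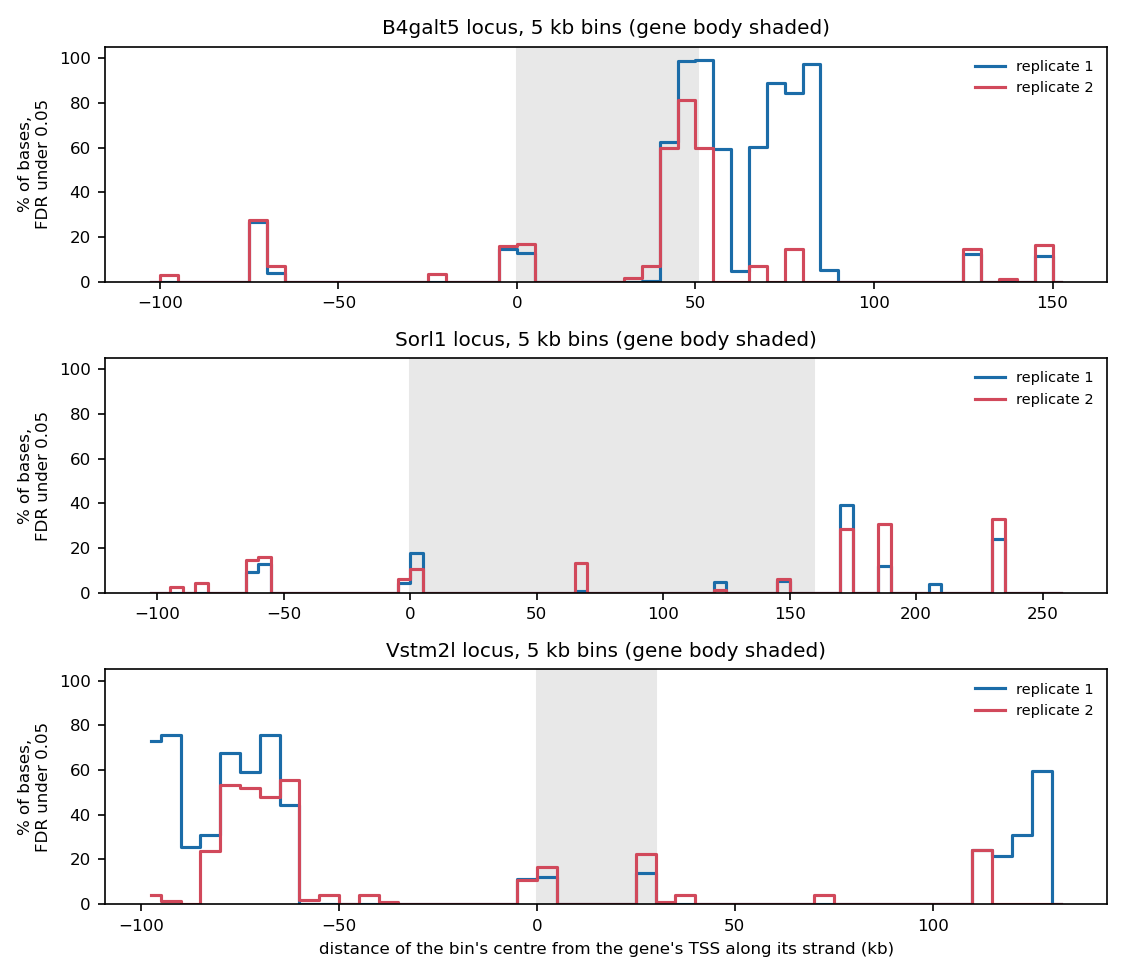
Share of bases with a false discovery rate under 0.05 (y axis, percent) in 5 kb bins, by distance of the bin's centre from the TSS of each gene along its strand (x axis, kb). Blue is replicate 1, red replicate 2, and grey shading the gene body. B4galt5 has a block of high share in both libraries at its 3′ end and a further block in replicate 1. Vstm2l has a block upstream in both and flanking blocks in replicate 1, and Sorl1 has narrow peaks up to 39.4%.

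Away from the stretch, the B4galt5 neighbourhood (gene body plus 100 kb either side) held DHSs of ordinary strength and 3 weak ones, 76.9 to 77.9 kb downstream, with 0.112 to 0.262 in replicate 1 and 0.236 to 0.299 in replicate 2. The promoter of B4galt5 had 2 shared DHSs, with 1.13 and 5.48 at the TSS and 0.855 and 1.43 just inside the gene. The DHS 129.6 kb downstream in an intron of Ptgis had 1.91 and 3.99. Ptgis itself had no shared promoter DHS, whereas Slc9a8, a sodium/proton exchanger gene upstream of B4galt5, had one with 2.26 and 5.89. Of the 26 shared DHSs in the window, the 11 not under the weak limit in both libraries had a median ratio of 2.09 and the other 15, which are 12 of the stretch and these 3, one of 1.21.

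Letters that match the binding consensus of CTCF, an insulator and loop-anchor protein, were found in 1 of the 60 DHSs described at the 3 loci and in none of the 44 nearest the genes. Over all distal shared DHSs 18.6% held a match, 23.97% of those 100 to 300 bp wide and 4.24% of those 300 to 600 bp wide. The DHSs nearest the genes had median widths of 472 bp for B4galt5, 375 bp for Sorl1 and 360 bp for Vstm2l, against 220 bp overall. The match lay in an intron of Ptgis in a DHS with 1.00 in replicate 1 and 2.10 in replicate 2. It is shown here with the match in capitals, since footprints of both libraries overlapped it, by up to 6 bp in replicate 1 and 12 bp in replicate 2.
B4galt5 window, 126.8 kb downstream, chr2:167222241-167222440: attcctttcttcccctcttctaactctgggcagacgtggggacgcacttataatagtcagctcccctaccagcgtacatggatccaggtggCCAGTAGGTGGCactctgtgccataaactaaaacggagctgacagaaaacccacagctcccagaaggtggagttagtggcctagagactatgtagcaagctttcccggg
The match itself is at chr2:167222332-167222343. The sequences above also hold shorter stretches of the same pattern, so an 8-letter core (CAGAGGGC, CAGATGGC, CAGGGGGC or CAGGTGGC, or the same with T first, on both strands) was searched after the sequences had been seen. It was found in 4 of 15 DHSs nearest B4galt5, 4 of 14 nearest Sorl1 and 1 of 15 nearest Vstm2l, against 39.6% of all distal shared DHSs and 24.4% of those 300 to 600 bp wide. DHSs of the B4galt5 window in which it lay under footprints of both libraries included those 126.8 and 129.6 kb downstream and that 68.7 kb upstream. None of the 4 DHSs of the stretch that hold the core had it under footprints of both.

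Sorl1 (ENSMUSG00000049313.8) lies on the minus strand at chr9:41964720-42124297, and was the nearest protein-coding gene over 553 kb. Its 14 distal DHSs lay 59.4 to 458.7 kb from the TSS, 2 upstream and 12 downstream. Only 7 of them were inside the window of the gene body plus 100 kb either side. With the promoter, that window held 8 shared DHSs, against 26 for B4galt5 and 19 for Vstm2l. Over all protein-coding genes the window count had a median of 5, an upper quartile of 8 and a 99th percentile of 19. Per 100 kb of window Sorl1 had 2.22 shared DHSs, near the median of 1.90 over all genes. A single one was in a Sorl1 intron and 13 were intergenic with respect to protein-coding genes, 9 of which lay within annotated noncoding genes. Neighbours were 0.48 to 209 kb apart, with a median of 29.8 kb. Of the 14, 5 had another shared DHS within 2 kb, against 23.6% of all distal shared DHSs.

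Signal values near Sorl1 resembled those of distal DHSs at large. They ran from 0.630 to 2.54 in replicate 1, with a median of 0.915, and from 0.922 to 7.12 in replicate 2, with a median of 2.04. The ratio had a median of 2.15 and was over 1 for each of the 14, while 3.28% of all distal shared DHSs were lower in replicate 2. Under the weak limit in both libraries were 0 of 14, against 1.96% of all distal ones. No Sorl1 DHS was as low as the B4galt5 median in either library.

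The strongest Sorl1 DHSs lay at and beyond the 3′ end of the gene. The DHS 172.9 kb downstream of the TSS, printed above, had 2.54 and 7.12, with 5 footprints in replicate 1 and 8 in replicate 2 that overlapped in 4 places. An intronic DHS 149.8 kb downstream, at chr9:41974361-41974540, had 1.48 and 4.22, and a DHS only 480 bp from the strongest had 1.55 and 3.17. The promoter of Sorl1 itself had 1.08 and 2.67, below these 3 DHSs in each library. By the geometric mean of both values the lowest DHSs had 0.640 and 0.922 at 387.6 kb and 0.630 and 1.01 at 388.7 kb downstream, in a noncoding gene, Gm35835.

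Footprints were common to both libraries in 11 of 14 Sorl1 DHSs, against 84.7% of all distal shared DHSs. A footprint of each library was held by 13 of 14, against 93%. Both counts were near those shares. The density was 7.97 per kb in replicate 1 and 12.3 per kb in replicate 2, against 9.58 and 12.996 per kb over all distal shared DHSs. The E-box CAGATGG, searched as a site of neurogenic bHLH factors of the NEUROD kind, was matched on the minus strand of the strongest DHS at chr9:41951326-41951332, with a footprint of each library over all of its 7 bp. The same letters are part of the CTCF core CAGATGGC, so the match does not name a factor. E-box matches were found in 3 of 15 DHSs nearest B4galt5, 2 of 14 nearest Sorl1 and 1 of 15 nearest Vstm2l. The share was 9.44% of all distal shared DHSs and 11.5% of those 300 to 600 bp wide. The AP-1 consensus TGANTCA was found in 3 of 15, 0 of 14 and 2 of 15, against 5.41% and, at 300 to 600 bp, 7.30%. No AP-1 match lay under a footprint.

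**Figure D3:**
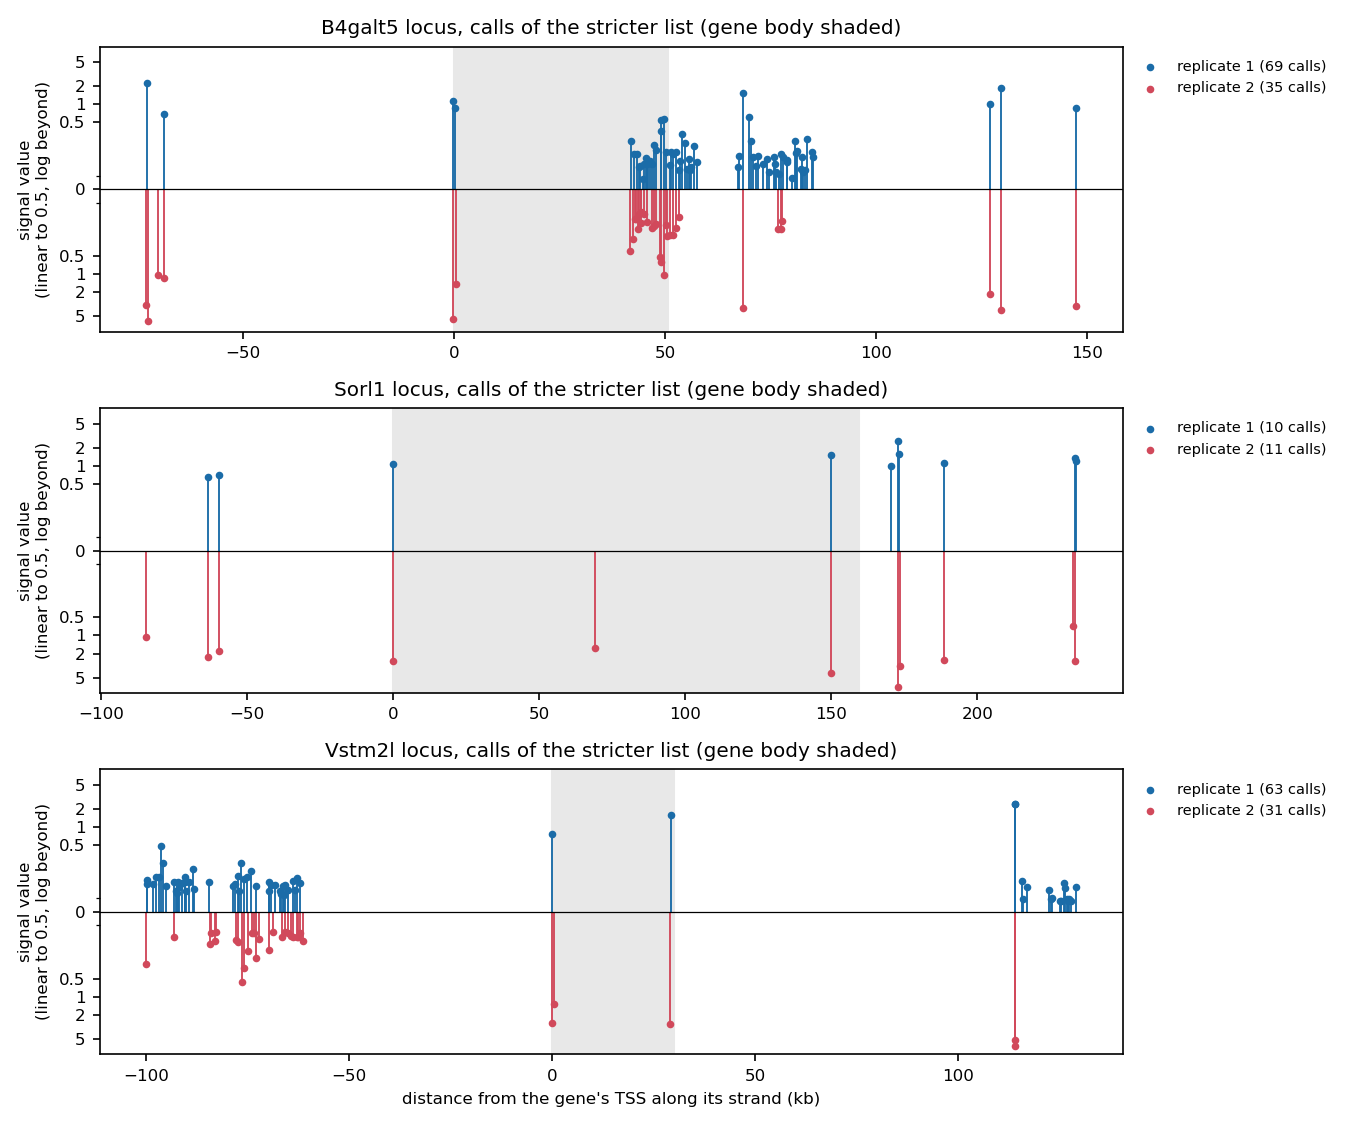
Signal value of every call of the stricter list (y axis, replicate 1 upwards in blue, replicate 2 downwards in red, linear to 0.5 and logarithmic beyond) by distance from the TSS along the gene's strand (x axis, kb), for each gene body (grey) plus 100 kb either side. B4galt5 and Vstm2l have dense blocks of calls mostly under 0.5, with more calls in replicate 1, while Sorl1 has 10 and 11 scattered calls.

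Vstm2l (ENSMUSG00000037843.6) lies on the plus strand at chr2:157914653-157944719. Of its 15 distal DHSs, 14 lay 62.8 to 84.3 kb upstream with midpoints in introns of Ctnnbl1, whose own TSS is further away. The other had its midpoint in a Vstm2l intron 29.1 kb downstream of the TSS. The upstream DHSs included a run of 7 over 5.43 kb and a run of 5 over 3.76 kb. Another shared DHS was within 2 kb for 12 of 15, against 23.6% of all distal shared DHSs.

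The DHS with its midpoint in a Vstm2l intron, at chr2:157943501-157943980 and printed above, differed from the upstream ones in strength. It had 1.57 in replicate 1 and 2.90 in replicate 2, above the Vstm2l promoter in both (0.766 and 2.69), and its 4 and 6 footprints overlapped in 5 places. The strongest upstream DHS, 76.4 kb from the TSS, had 0.364 and 0.575, and the next, 75.8 kb from it, had 0.248 and 0.418. The lowest by geometric mean had 0.163 and 0.158 at 65.0 kb and 0.201 and 0.150 at 65.7 kb. No upstream DHS reached the downstream one in either library.

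Over all 15 Vstm2l DHSs the median was 0.233 in replicate 1 and 0.228 in replicate 2, with a median ratio of 1.04. Of the 15, 7 were lower in replicate 2, against 3.28% of all distal shared DHSs. As for B4galt5, 12 were under the weak limit in both libraries, against 1.96%. Footprints of each library were present in 6 of 15, against 93%, and overlapped in 3 of 15, against 84.7%. Their density was 5.81 per kb in replicate 1 and 4.69 in replicate 2, against 9.58 and 12.996 over all distal shared DHSs. The values of the 2 loci, which lie on the same chromosome, were alike in strength, ratio and sparse common footprints. Weak DHSs were also found near Cdh5 and Trappc9, as given below. The 230 distal shared DHSs under the weak limit in both libraries, with 12 of each locus among them, had medians of 0.219 and 0.244. Their median ratio was 1.14, and 10.9% had overlapping footprints. The limit itself keeps these medians low and bears on the ratio, so neither shows how particular the 2 loci are.

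Blocks called mainly in replicate 1 flanked Vstm2l on both sides. From -105 to -88.1 kb of the TSS, still in Ctnnbl1, replicate 1 had 26 calls with a median of 0.219, while replicate 2 had calls there in 2 shared DHSs, 99.7 kb upstream (0.238 in replicate 1 and 0.394 in replicate 2) and 93.2 kb upstream (0.219 and 0.189). The cut-rate bins centred at -97.5 and -92.5 kb were 72.9% and 75.6% under the false discovery rate in replicate 1 and 3.94% and 1.42% in replicate 2. Downstream, 12 calls of replicate 1 with a median of 0.0981 lay 122.3 to 129.0 kb from the TSS in Rprd1b, a gene for a protein that binds RNA polymerase II, where replicate 2 had no base under 0.05 in the bin at 127.5 kb. The promoter DHS shared by Rprd1b and Tti1, close by, had 2.41 and 6.69, the higher value in replicate 2. In the bins between -77.5 and -62.5 kb, where most of the upstream shared DHSs lie, the libraries had 44.5% to 75.8% and 48.0% to 55.6%. The bin centred at -82.5 kb, with the DHS 84.3 kb upstream, had 31.0% and 23.6%, against 99th percentiles of 30.3% and 24.4%.

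Calls of the stricter list in the windows repeat the contrast. B4galt5 had 69 calls in replicate 1 and 35 in replicate 2, Sorl1 10 and 11, and Vstm2l 63 and 31. Under the weak limit were 71.0% and 68.6% of the B4galt5 calls and 85.7% and 83.9% of the Vstm2l calls, but 0% of the Sorl1 calls, against 42.5% of all replicate 1 calls and 12.4% of all replicate 2 calls. In the lenient list 4 of 20 Sorl1 calls of replicate 2 (20%) and 0 of 14 of replicate 1 were under it. Of the replicate 1 calls, 44.9% near B4galt5 (95% exact Clopper-Pearson interval 32.9 to 57.4%), 90% near Sorl1 (55.5 to 99.7%) and 34.9% near Vstm2l (23.3 to 48.0%) were in a shared DHS, against 48.5% in the genome. For replicate 2 the shares were 91.4% (76.9 to 98.2%), 72.7% (39.0 to 94.0%) and 64.5% (45.4 to 80.8%), against 61.1%. These intervals cover counting error only, and neighbouring calls are not independent. The genes were picked for many shared DHSs, and these shares come from the same calls. The intervals therefore do not test a difference from the genome.

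Counted over the whole windows, footprints near B4galt5 numbered 103 in replicate 1 and 82 in replicate 2, near Sorl1 38 and 72, and near Vstm2l 102 and 72. The share of replicate 1 footprints that overlapped one of replicate 2 was 21.4% for B4galt5, 57.9% for Sorl1 and 12.7% for Vstm2l, against 42.6% in the genome. For replicate 2 footprints it was 24.4%, 30.6% and 18.1%, against 27.4%. The replicate 2 shares of Sorl1 (22 of 72) and B4galt5 (20 of 82) were near the genome share.

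The counts of B4galt5 and Vstm2l rested on weak calls and that of Sorl1 did not. With weak calls left out, 1 distal shared DHS was left for B4galt5, 14 for Sorl1 and 1 for Vstm2l. By this count, on which it was picked, Sorl1 ranked 9 among all genes as reported and 3 with weak calls left out. Its rank was 26 with the lenient list, 538 in replicate 1 alone, 36 in replicate 2 alone and 3859 with TSSs of all genes. Joining DHSs with gaps under 500 bp left 4, 11 and 11. When noncoding genes were allowed as the nearest gene, all 15 B4galt5 DHSs went to the processed pseudogene Gm11473, 14 Vstm2l DHSs to the processed pseudogene Gm14176, and the 14 Sorl1 DHSs to 6 noncoding genes. Limiting the count to 100 kb from the TSS left 15, 2 and 15.

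**Figure D4:**
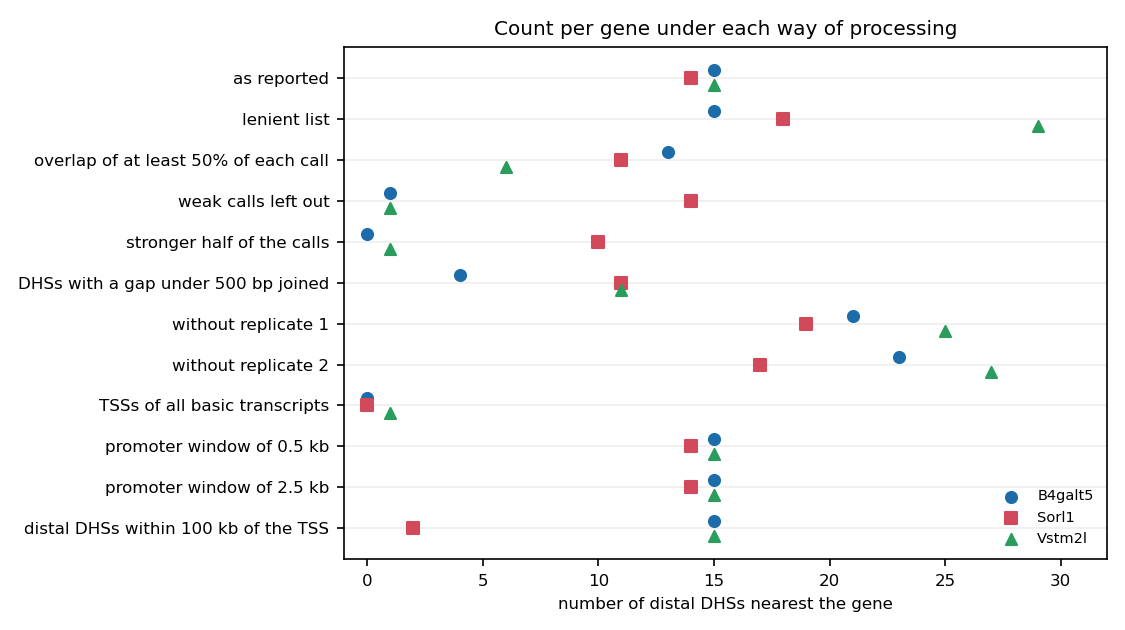
Number of distal DHSs nearest each gene (x axis) under each way of processing (y axis): circles B4galt5, squares Sorl1, triangles Vstm2l. With weak calls left out B4galt5 and Vstm2l fall to 1 while Sorl1 stays at 14, and with noncoding genes included B4galt5 and Sorl1 fall to 0.

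The genes most like the 3, by the count of distal shared DHSs over the 2 libraries, were Cdh5 with 24, Mid1, Olfr1324, Pou3f3, Sfi1 and Trappc9 with 15 each, and Gm21860 with 14. Weak DHSs like those of B4galt5 and Vstm2l made up 17 of 24 for Cdh5, with medians of 0.241 and 0.228, and 9 of 15 for Trappc9, with 0.248 and 0.323. The other 5 had none under the weak limit. In this they were like Sorl1, although its median distance to the nearest DHS, 9570 bp, was above those of the other 9 genes, which were 570 to 2650 bp. Sfi1 differed in its median ratio of 0.941, with medians of 2.06 and 2.05, against a ratio of 2.15 for Sorl1. Gm21860 is annotated on chromosome Y, while the labels give female mice. The reason for calls there was not tested, so its count cannot be taken at face value.

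The promoters of genes in the families and pathways of the 3 mostly carried a shared DHS. The lists hold the 3 genes themselves. Such DHSs were found at 55.4% of all protein-coding genes. Among the listed genes they were found at 7 of 7 B4galt family genes and 9 of 10 genes of glycosphingolipid and ganglioside synthesis. They were also found at 5 of 5 Vps10 receptor genes and 5 of 5 genes of retromer, counted with the sorting nexin Snx27. The same held for 10 of 10 genes of amyloid precursor processing and 5 of 5 Vstm genes. The exception was St8sia3, a sialyltransferase gene, which had a call of the lenient list in replicate 1 alone. Promoter signal was highest in these lists for B4galt1 (2.51 and 7.17) and B4galt6 (2.24 and 6.10), the second lactosylceramide synthase, for St3gal5 (2.01 and 4.44), the GM3 synthase, and for Sort1 (1.87 and 5.79) and Sorcs2 (1.74 and 3.42), receptors of the same family as Sorl1. Among partners of SORLA they were Vps29 (2.87 and 8.62) and Vps35 (2.42 and 7.26) of retromer and the amyloid precursor App (3.38 and 6.86) and its protease Adam10 (2.56 and 10.2). The Vstm2a promoter had 1.05 and 1.92 and that of Vstm2b 1.08 and 2.40. None of these lists had a median above 2 distal shared DHSs per gene, so high counts were not general in the families.

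As a check of the tissue, 4 of 8 cortical neuron genes (50%), Tbr1 and Mef2c among them, had a shared promoter DHS, against 55.4% of all protein-coding genes, and Emx1, Neurod2, Neurod6 and Bcl11b had a promoter call of the stricter list in replicate 2 alone. Of 4 genes each for liver, blood and endothelium, 0 had a shared promoter DHS, although Cdh5 had a promoter call in replicate 1. Replicate 1 had 59355 calls in the stricter list and replicate 2 had 46566, and the read depth is not in the files. If 1 step of the signal values stands for 1 tag, which the headers do not say, the median B4galt5 DHS held 57 tags in replicate 1 and 37 in replicate 2, and the median Sorl1 DHS 196 and 259.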

How the data were processed

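DNase-seq was measured in 2 libraries of a single group, 1 per animal number in the labels. Per the labels, positions in the deposited files are mm10, and each file belongs to 1 library. The aligner and the peak caller were not given in the sources used here. In the deposited peak lists the signal of a call is the authors' value, and how it was scaled is not in the headers. Values under 100 steps were whole multiples of 0.00467 in replicate 1 and 0.00788 in replicate 2 (100% of those tested, within 0.05 of a step). The deposited cut-rate file holds the authors' q-values (false discovery rates), listed under 0.05, and the footprint file has 0.01 on each line, taken as a threshold p-value or rate.

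From these, calls of the stricter list that overlapped by 1 bp or more were joined, and a joined interval with calls from both libraries was a shared DHS. Its value in a library is that of its highest call. A promoter DHS had its midpoint within 1 kb of the TSS of a basic protein-coding transcript (GENCODE M21, GRCm38.p6), and other DHSs were distal. Exon, intron and intergenic refer to the midpoint and to protein-coding genes. No sample columns were unused (0). No test was run: with 1 group, values are set beside those over all features. Consensus letters were searched on both strands: those of CTCF, RFX, MEF2 and REST by name, CRE as TGACGTCA, AP-1 as TGANTCA, EGR as GCGTGGGCG, YY1 as AAGATGGCG, NRF1 as GCGCATGCG, the NEUROD E-box as CAGATGG, NFI as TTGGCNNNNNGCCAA, SOX as AACAATGG, the POU octamer as ATGCAAAT and ETS as ACCGGAAGT. Scripts ran in Python 3.11.15 with numpy 2.4.6, pandas 2.3.3 and scipy 1.17.1 and were tested on simulated calls. Named were the 3 genes, protein-coding genes in their windows, genes with 14 or more distal shared DHSs, listed genes without a shared promoter DHS and the 2 with the highest promoter rank per list, and, per locus, the promoter, the 3 strongest and 2 weakest distal DHSs and any with a CTCF match. The genes and lists were chosen with earlier results of these data known. Some genes and a DHS that fall under these rules are not reported here.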

Additional observations from a re-analysis of the deposited data

How the results depend on the processing

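Of 60 recomputed counts, 34 stayed within 1.5 times the reported one and 26 did not, and the cause was not tested except where fewer calls or another gene list entered by construction. For distal shared DHSs nearest B4galt5 (15), leaving out weak calls gave 1, calls above each library's median 0, joining gaps under 500 bp 4 and TSSs of all genes 0, and single libraries gave 21 to 23. For Sorl1 (14), TSSs of all genes gave 0, a limit of 100 kb 2, and single libraries 17 to 19. For Vstm2l (15), the lenient list gave 29, an overlap of at least 50% of each call 6, leaving out weak calls 1, calls above the median 1, TSSs of all genes 1, and single libraries 25 to 27. For shared DHSs in the window of B4galt5 (26), leaving out weak calls gave 9, calls above the median 6, joining 12, and single libraries 34 to 63. For that of Sorl1 (8), a flank of 50 kb gave 5 and single libraries 9 to 11. For that of Vstm2l (19), the lenient list gave 34, the overlap of 50% 7, leaving out weak calls 3, calls above the median 3, a flank of 50 kb 2, and single libraries 31 to 59. Promoter windows of 0.5 and 2.5 kb changed none of the 3 distal counts. No paired analysis was possible because there is 1 group. With 2 libraries, no spread beyond their 2 values can be given, and calls seen in 1 library may be below detection in the other at its depth.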
